A study of Mus musculus with 56 samples.

Results

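Oxidative phosphorylation genes encode the subunits of the respiratory chain (complexes I to IV) and of ATP synthase (complex V). The members were the rows of the deposited expression table whose symbol matched the subunit families Nduf, Sdh, Uqcr, Cox4 to Cox8, Atp5 or the mitochondrial mt-Nd, mt-Co, mt-Cyt and mt-Atp genes, and whose mean over all libraries was at least 1 FPKM (fragments per kilobase of transcript per M mapped fragments, M standing for mega). Of 53431 features, 95 qualified, 83 encoded in the nucleus and 12 in mitochondrial DNA. The nuclear members were 36 of complex I, 4 of complex II, 8 of complex III, 18 of complex IV and 17 of complex V. The mitochondrial members were 7 of complex I, 1 of complex III, 2 of complex IV and 2 of complex V. Another 8 symbols were dropped because they contain -ps, and 7 lay under the minimum. Just inside it was mt-Nd3 at 1.16 FPKM, and just outside it were mt-Co3 at 0.208 and Cox6c2 at 0.185. Not every symbol is a subunit: Atp5s is a coupling factor and Cox7a2l an assembly factor of respiratory supercomplexes. Ndufb4c, counted with complex I by its symbol, is annotated as a processed pseudogene. Ndufa4 and its relative Ndufa4l2 were counted with complex IV in spite of their Nduf symbols.

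The samples were homogenates of front paws from 56 male DBA/1 mice, 1 library per mouse. Collagen-induced arthritis (CIA), an autoimmune arthritis raised by type II collagen, was started in 52 of them by immunisation on days 1 and 21. From day 21 these mice were injected for 5 weeks with an IgG1 isotype control at 30 mg/kg (isotype, n = 13), the antibody XT3.11 against TNF at 30 mg/kg (anti-TNF, n = 13), the antibody MP5-20F3 against IL-6 at 10 mg/kg (anti-IL-6, n = 13), or both antibodies at these doses (combination, n = 13). The no CIA group (n = 4) had no treatment, and the labels give no age. RNA is from paws collected on day 91. Estimated depth was 39.8 to 54.65 M fragments per library, and no 2 libraries held identical values. A whole paw holds muscle, skin, bone, marrow, synovium and invading leukocytes. In bulk RNA, fewer cells of a type and less RNA per cell cannot be told apart.

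The respiratory chain passes electrons from NADH and succinate to oxygen and pumps protons across the inner mitochondrial membrane, and ATP synthase uses that gradient to make ATP. Mitochondrial DNA is transcribed separately from the nuclear genes, yet both supply subunits of the same complexes. Skeletal muscle, above all its oxidative fibres, is rich in mitochondria, and it uses muscle isoforms of some complex IV subunits in place of the isoforms found in most other tissues.

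Levels of several mitochondrial genes were divided between the mitochondrial gene and an annotated pseudogene. On GRCm38 (GENCODE M21), chr1:24611535-24616197 on the minus strand holds 7 unprocessed pseudogenes whose sequence matches mitochondrial genes. The table lists mt-Co3, a core subunit of complex IV, at 0 to 0.70 FPKM per library, while its copy Gm28437 was listed at 3403 to 13389. In the shown window, bases 362 to 421 of the mt-Co3 transcript, the gene and its copy hold the same letters, as they do over all 783 aligned bases. For mt-Nd3 and Gm28438 the 345 aligned bases differ at 1 position, T3C (counted from the 5′ end of the mt-Nd3 transcript), in capitals in bases 1 to 60.
mt-Co3: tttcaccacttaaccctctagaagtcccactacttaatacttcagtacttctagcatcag
Gm28437: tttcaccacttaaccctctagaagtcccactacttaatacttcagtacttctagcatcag
mt-Nd3: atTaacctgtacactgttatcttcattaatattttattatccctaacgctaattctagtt
Gm28438: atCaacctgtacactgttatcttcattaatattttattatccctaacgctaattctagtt
Sequences are from the GENCODE M21 transcripts.

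The same held for 3 further genes with a copy along their whole length. Mean FPKM was 2.45 for mt-Co2 against 8523 for Gm28661, 2.05 for mt-Atp6 against 6628 for Gm10925, and 7.87 for mt-Nd4l against 1067 for Gm10222. In all 56 libraries the value of each of these copies exceeded that of its mitochondrial gene, with no overlap between their ranges. Where the copy covers part of a gene, both were high: mt-Nd4 had 1480 FPKM and Gm28439 had 1215, and mt-Co1 had 5667 and Gm29216 had 10788. The other 6 mitochondrial members had no such copy among annotated transcripts, and copies outside the annotation were not searched for. Their means were 4329 for mt-Cytb, 3162 for mt-Nd1, 1765 for mt-Nd2, 1474 for mt-Atp8, 1244 for mt-Nd6 and 816 for mt-Nd5. In mitochondrial DNA mt-Atp8 follows mt-Co2 and overlaps mt-Atp6, and the copies of those genes are neighbours on chromosome 1. Whether sequence of mt-Atp8 lies between these copies was not tested. Across the 56 libraries the copies followed mt-Co1 with r of 0.92 to 0.98, as a description of libraries that share their depth and tissue makeup. How reads matching both places were assigned is not given in the sources used here, so the values of these genes and copies are uncertain. The copies made up 6.02% of each library's FPKM sum on average (range 3.23% to 11.4%). A nuclear pair has the same limit: Ndufb4 (30.0 FPKM) and Ndufb4c (128) are identical over 390 bases.

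**Figure D1:**
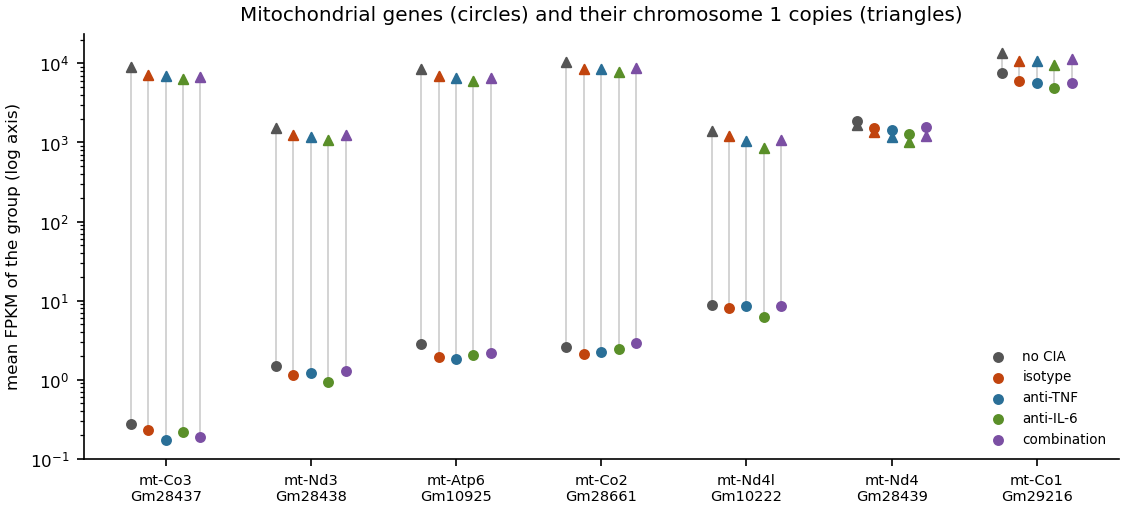
Mean FPKM by group (log axis) of 7 mitochondrial genes (circles) and of their annotated chromosome 1 copies (triangles), with group colours and grey lines joining each pair. mt-Co3, mt-Nd3, mt-Atp6, mt-Co2 and mt-Nd4l sit far below their copies in all 5 groups, while mt-Nd4 and mt-Co1 are of the same order as theirs.

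Among nuclear members, mean levels differed widely within a complex, in complex V from 5.71 FPKM for Atp5s to 657 for Atp5b. In complex I, which takes electrons from NADH, Ndufb9 and Ndufb8 had the highest means. For Ndufb9, an accessory subunit, the no CIA values were 229, 316, 400 and 290.1 FPKM. Its lowest, median and highest values were 145, 244 and 353 in isotype, 150, 207 and 473 in anti-TNF, 152, 215 and 346 in anti-IL-6, and 168, 258 and 364 in combination libraries. All 5 groups overlapped. Atp5b, the catalytic beta subunit of ATP synthase, had the highest mean of the nuclear members, with medians of 765 FPKM in no CIA, 686 in isotype, 523 in anti-TNF, 576 in anti-IL-6 and 666 in combination libraries. Its range in the anti-TNF group alone, 464 to 1312, was wider than any difference between group medians. Sdha, the flavoprotein of complex II, ran from 58.3 to 209 FPKM over all groups, and Uqcrh, the hinge subunit of complex III, from 325 to 644.

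A set score, the mean log2(FPKM + 1) of the members in a library, summarised each genome. The nuclear score was 7.44 ± 0.21 (SD, n = 4) without CIA, 7.19 ± 0.28 in isotype, 7.23 ± 0.34 in anti-TNF, 7.15 ± 0.29 in anti-IL-6 and 7.30 ± 0.27 in combination libraries (n = 13 each). The mitochondrial score was 8.21 ± 0.38, 7.92 ± 0.45, 7.80 ± 0.54, 7.72 ± 0.39 and 7.91 ± 0.52 in the same order. The no CIA group had the highest mean of both scores and the anti-IL-6 group the lowest, and neighbouring groups in either order differed by less than 1 SD. Differences between groups held 7.74% of the variance of the nuclear score and 7.17% of that of the mitochondrial score. Such a share is above 0 even without a group effect, because libraries vary. That part was not estimated, so these shares were not read as an effect of group. The mitochondrial minus nuclear difference was 0.77 ± 0.21 without CIA, 0.73 ± 0.29 in isotype, 0.57 ± 0.33 in anti-TNF, 0.57 ± 0.23 in anti-IL-6 and 0.61 ± 0.32 in combination libraries. The mitochondrial score includes the rows of a few FPKM whose copies are high. With each gene and its copy summed, the difference was 4.24, 4.17, 3.96, 3.97 and 3.98 in the same order of groups.

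**Figure D2:**
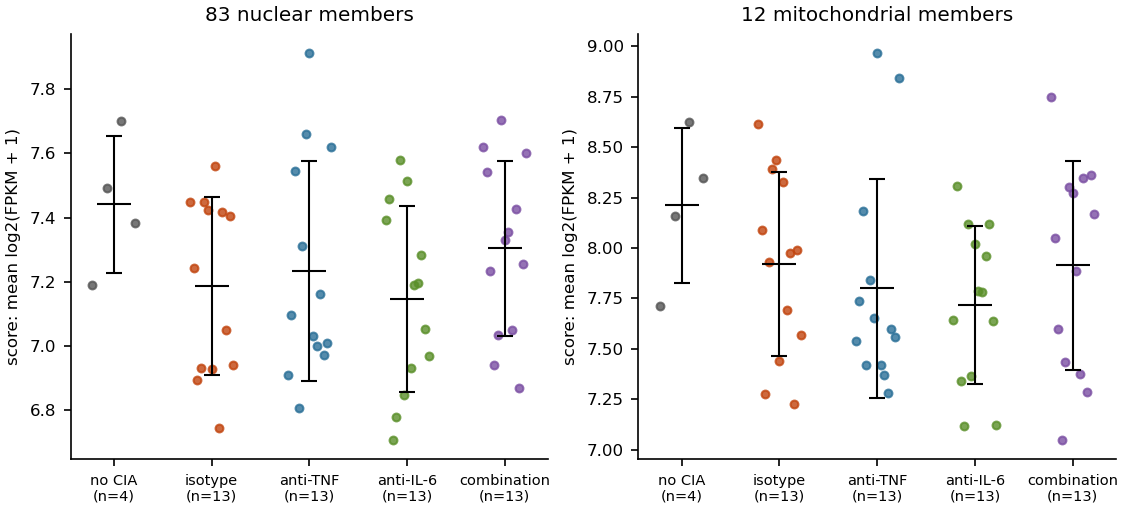
Set scores (mean log2(FPKM + 1)) of the nuclear and mitochondrial members, 1 point per library, with the group mean and SD in black. The 5 groups overlap in both panels, and the highest library of each panel is an anti-TNF library (7.91 nuclear, 8.97 mitochondrial).

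Isotype mice, immunised and injected with the control antibody, were set against untreated mice without CIA. Arthritis, immunisation and injection cannot be told apart in this comparison. By limma with Benjamini-Hochberg adjustment over 14700 genes, 0 of 95 members passed an adjusted p of 0.05, where 0.156% of all genes did. At an unadjusted p under 0.05 there were 8 members, against 16.7% of all genes. Point estimates leaned lower in isotype libraries, with 80 of 83 nuclear and 12 of 12 mitochondrial members negative and medians of -0.25 and -0.30 (all genes 0.03). These medians rest in part on single libraries of the 4: they were -0.16 and -0.15 without no CIA replicate 3, and -0.32 and -0.46 without no CIA replicate 1. Ndufa11, a membrane subunit of complex I, had the smallest p. Its no CIA values were 186, 203, 199 and 184 FPKM, and its isotype libraries ran from 113 to 175 (median 155). These groups did not overlap in this member, which was picked for its p. How many of all genes do the same was not counted. Its difference was -0.39 ± 0.14 (SE) on the log2(FPKM + 1) scale, adjusted p = 0.247 by limma.

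This comparison depended on the index run, 1 of 5 stretches of index numbers in the library titles. The stretches were inferred here from where mouse numbers ascend with the index, an order that isotype replicate 10 (index 66) breaks. The labels name no run or batch. Run 1 held all 4 no CIA libraries and isotype replicates 4 and 7, and no other library. Within it, the nuclear score was 6.93 in the 2 isotype libraries and 7.44 in the 4 no CIA libraries. The neutrophil score (15 neutrophil and granule genes, same scale) was 4.55 in those isotype libraries against 2.15 in no CIA. With the index run as a term, limma called 11 nuclear members, all lower in isotype than in no CIA libraries, where 18.7% of all genes were called. They included Ndufa11 at -0.71 ± 0.20, Atp5d of ATP synthase at -0.53 ± 0.15 and Cox7a2 of complex IV at -0.48 ± 0.15 (SE, adjusted p of 0.021, 0.025 and 0.028 by limma). In the same fit 3 members were called lower in anti-TNF (22.2% of all genes) and 2 in anti-IL-6 (10.9%) than in no CIA libraries. With the muscle score added to it, a setting chosen after the data were seen, 45 members were called in isotype (25.2% of all genes), 21 in anti-TNF (24.7%), 1 in anti-IL-6 (3.7%) and 28 in combination libraries (16.1%), all nuclear and lower than in no CIA. The run term rests on the 2 isotype libraries of run 1, and the no CIA group shares a run with isotype only. Run and CIA therefore cannot be told apart in the comparisons of no CIA with the antibody groups except through those 2 libraries. The part of the neutrophil difference in these calls was not tested.

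The antibody groups were compared with isotype to ask what each treatment changed, and all 3 comparisons share those isotype libraries. By limma 0 of 95 members were called in anti-TNF against isotype (0% of all genes), in anti-IL-6 against isotype (0.952%) and in combination against isotype (0%). At an unadjusted p under 0.05 there were 1, 3 and 5 members, against 5.47%, 12.8% and 5.78% of all genes. Nuclear medians were 0.06, -0.03 and 0.11 in that order, and mitochondrial medians -0.13, -0.23 and -0.03. Leaving out single libraries changed the sign of some: the anti-IL-6 nuclear median ran from -0.070 without anti-IL-6 replicate 5 to 0.0035 without isotype replicate 8, and the combination mitochondrial median from -0.11 without combination replicate 1 to 0.035 without combination replicate 4. The anti-TNF nuclear median ran from 0.014 without anti-TNF replicate 7 to 0.088 without anti-TNF replicate 4, and its mitochondrial median from -0.23 without anti-TNF replicate 7 to -0.076 without isotype replicate 1. The combination nuclear median was 0.075 without isotype replicate 9. The member with the smallest p was Atp5g2, a c-ring subunit of ATP synthase, for anti-TNF (0.21 ± 0.093, adjusted p = 0.888 by limma) and for combination (0.24 ± 0.093, adjusted p = 0.812 by limma). For anti-IL-6 it was Cox6a1 (0.24 ± 0.089, adjusted p = 0.192 by limma), a complex IV isoform described further on.

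Against one another the treatments also gave 0 called members by limma. This held for combination against anti-TNF (0% of all genes called), combination against anti-IL-6 (0.102%) and anti-IL-6 against anti-TNF (0%). At an unadjusted p under 0.05 there were 1, 1 and 0 members, against 1.09%, 11.4% and 4.68% of all genes. Nuclear medians were 0.06, 0.14 and -0.09, and mitochondrial medians 0.10, 0.20 and -0.12. Without anti-TNF replicate 7 the nuclear medians of the comparisons with anti-TNF were 0.11 (combination) and -0.024 (anti-IL-6), and the mitochondrial medians 0.20 and 0.0079. Against no CIA mice, limma called 0 members in anti-TNF (0.551% of all genes), anti-IL-6 (0.558%) and combination libraries (0.156%), with nuclear medians of -0.19, -0.28 and -0.14 and mitochondrial medians of -0.45, -0.53 and -0.31. At an unadjusted p under 0.05 there were 1, 14 and 0 members, against 19.1%, 28.1% and 10.5% of all genes. These comparisons share the 4 no CIA libraries. Without no CIA replicate 3 the nuclear medians of anti-TNF and combination were -0.12 and -0.060, and without no CIA replicate 1 the nuclear and mitochondrial medians of combination were -0.23 and -0.47.

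Within index runs the nuclear differences were mixed in sign. For anti-TNF minus isotype the nuclear score differed by 0.30 in run 2, -0.10 in run 3 and 0.04 in run 5. For anti-IL-6 minus isotype it differed by 0.09 in run 2, -0.23 in run 4 and -0.16 in run 5. For combination minus isotype it differed by 0.31, 0.05, -0.33 and 0.24 in runs 2 to 5. Some of these cells hold 1 library of a group, so they have no error of their own. Among the treated groups, combination minus anti-TNF was positive in its 3 shared runs (0.02, 0.15 and 0.20) and anti-IL-6 minus anti-TNF negative in its 2 (-0.21 and -0.20), while combination minus anti-IL-6 was 0.23, -0.10 and 0.40. Mouse numbers run in blocks by group except mouse 2, labelled anti-TNF (replicate 6), and mouse 20, labelled anti-IL-6 (replicate 2), both in run 2. Without these libraries the run 2 value of anti-IL-6 minus anti-TNF was -0.00058, and those of anti-TNF and anti-IL-6 minus isotype were -0.018 and -0.019. The run 2 values of combination minus anti-TNF and minus anti-IL-6 were then 0.33 and 0.33. This exclusion was chosen after the data were seen, and limma called 0 members in all 10 comparisons with it. The muscle score also differed between groups, with means of 8.74 ± 0.85 (SD, n = 4) in no CIA, 8.12 ± 1.19 in isotype, 7.76 ± 1.32 in anti-TNF, 7.39 ± 1.28 in anti-IL-6 and 8.30 ± 1.12 in combination libraries.

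The members moved with the muscle genes of the paw. Centred within groups, the nuclear score followed the muscle score over the 56 libraries with r of 0.93 and the mitochondrial score with r of 0.84, as a description of libraries that share their tissue makeup. The muscle score, the mean log2(FPKM + 1) of 20 contractile genes that include no member, ran from 5.14 in anti-IL-6 replicate 3 to 9.94 in anti-TNF replicate 7. Between those libraries Atp5b was 448 and 1312 FPKM, mt-Co1 was 3798 and 13394, and mt-Nd2 was 884 and 4579. With group means in the model, limma called a positive slope for 89 of 95 members and a negative slope for 4, where 71.6% of all genes were called, 16.3% positive and 55.3% negative. The median slope was 0.21 log2 units per unit of muscle score for nuclear and 0.37 for mitochondrial members, against -0.06 for all genes. With median-of-ratios scaling 2 members in place of 4 had a negative call, and 30% of all genes in place of 55.3%. A slope here says that a gene moved with the contractile genes between libraries of a group.

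By complex, all 36 nuclear members of complex I, 4 of complex II, 8 of complex III and 17 of complex V had a positive called slope, with medians of 0.23, 0.28, 0.22 and 0.20. Complex IV, counted with Ndufa4 and Ndufa4l2, was mixed, with 12 of 18 positive and 4 negative, Ndufa4l2 among the latter. Of the mitochondrial members 12 of 12 were positive, from 0.14 for mt-Atp6 to 0.54 ± 0.044 (SE) for mt-Nd2. The slopes of mt-Co2, mt-Nd3 and mt-Atp6 (0.17, 0.16 and 0.14) belong to rows of about 1 to 3 FPKM, where the added 1 FPKM shrinks a log2 difference. Cox7a2l, the supercomplex factor, had a slope of -0.02 ± 0.013 that was not called (adjusted p = 0.16 by limma), and Atp5s had 0.10 ± 0.021.

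**Figure D3:**
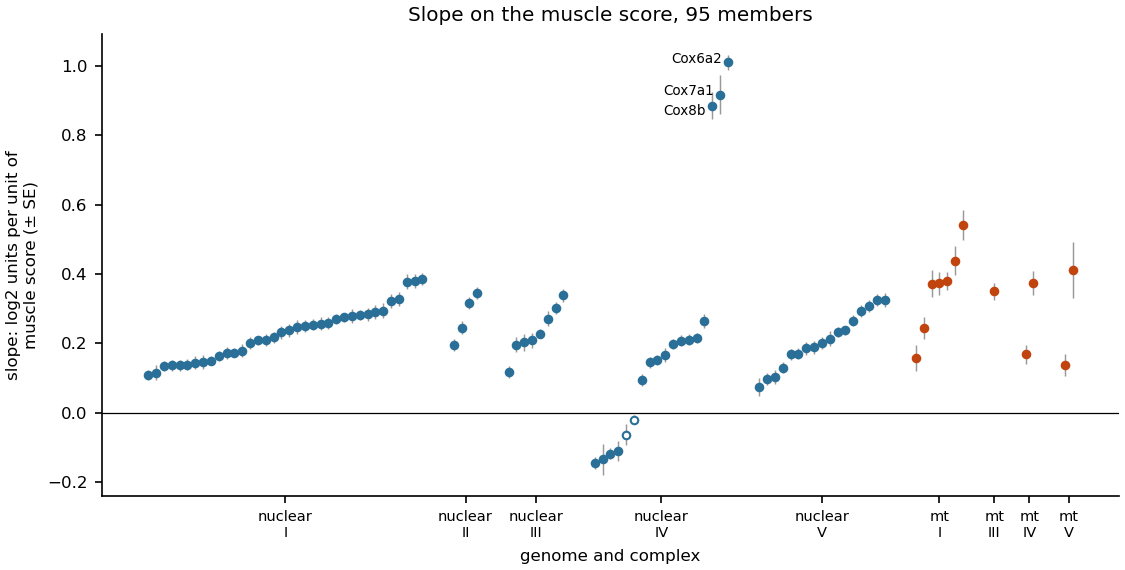
Slope of each of the 95 members on the muscle score (log2 units per unit of score, ± SE), sorted within genome and complex. Filled points passed an adjusted p of 0.05 and open points did not; Cox6a2, Cox7a1 and Cox8b stand above the rest of nuclear complex IV, and 6 members of that complex lie below 0.

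Complex IV, cytochrome c oxidase, held both ends of the range, with Cox6a2 highest and Cox6a1 lowest, which are isoforms of the same subunit. Not all called negative slopes belonged to partners of a muscle isoform: Ndufa4l2 had -0.13 ± 0.045 and Cox4i2 -0.11 ± 0.029 (SE). Cox6a2, Cox7a1 and Cox8b, the heart and skeletal muscle isoforms, had slopes of 1.01 ± 0.022, 0.92 ± 0.056 and 0.88 ± 0.040 (SE). Cox6a1 and Cox8a, the forms of most other tissues, had slopes of -0.15 ± 0.017 and -0.12 ± 0.016, and Cox7a2 had 0.09 ± 0.017. Cox6a2 was 142, 342, 567 and 320.1 FPKM in the 4 no CIA libraries, and its lowest, median and highest values were 37.4, 242 and 449 in isotype, 32.2, 115 and 830 in anti-TNF, 19.3, 128 and 399.5 in anti-IL-6, and 55.1, 252 and 604 in combination libraries. All groups overlapped. Cox6a1 ran from 161 to 344 FPKM over all 56 libraries. Cox6a2 was the higher of the pair in 22 of 56 libraries, Cox8b exceeded Cox8a in 20 and Cox7a1 exceeded Cox7a2 in 13.

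The log2 ratio of each pair was set against the muscle score after centring within groups (n = 56, 6 pairs, permutation of libraries within groups with 100000 resamples, two-sided). Pearson's r was 0.99 for Cox6a2/Cox6a1, 0.97 for Cox8b/Cox8a and 0.92 for Cox7a1/Cox7a2, with Spearman's rho of 0.99, 0.96 and 0.94. It was -0.77 for Cox4i2/Cox4i1 (rho -0.77), -0.66 for Cox6b2/Cox6b1 (rho -0.71) and -0.74 for Ndufa4l2/Ndufa4 (rho -0.76). Cox4i2 is known as the lung and oxygen-sensitive form, Cox6b2 as the testis form and Ndufa4l2 as a hypoxia-induced relative of Ndufa4. Each permutation p was 1e-05, the smallest that 100000 resamples can give, and so was each p adjusted over the 6 pairs. A rise of the first 3 ratios was given in advance, because muscle isoforms were set against muscle genes, so their p-values add no support. In the other 3 pairs the denominators Cox4i1, Cox6b1 and Ndufa4 themselves rose with the muscle score (slopes of 0.15, 0.15 and 0.17). Without the 2 libraries farthest from the median muscle score, r ranged from 0.91 to 0.99 for the first 3 pairs and from -0.79 to -0.69 for the others. The ratios share the tissue makeup of the libraries, and Cox4i2 and Cox6b2 were under 12 FPKM throughout.

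**Figure D4:**
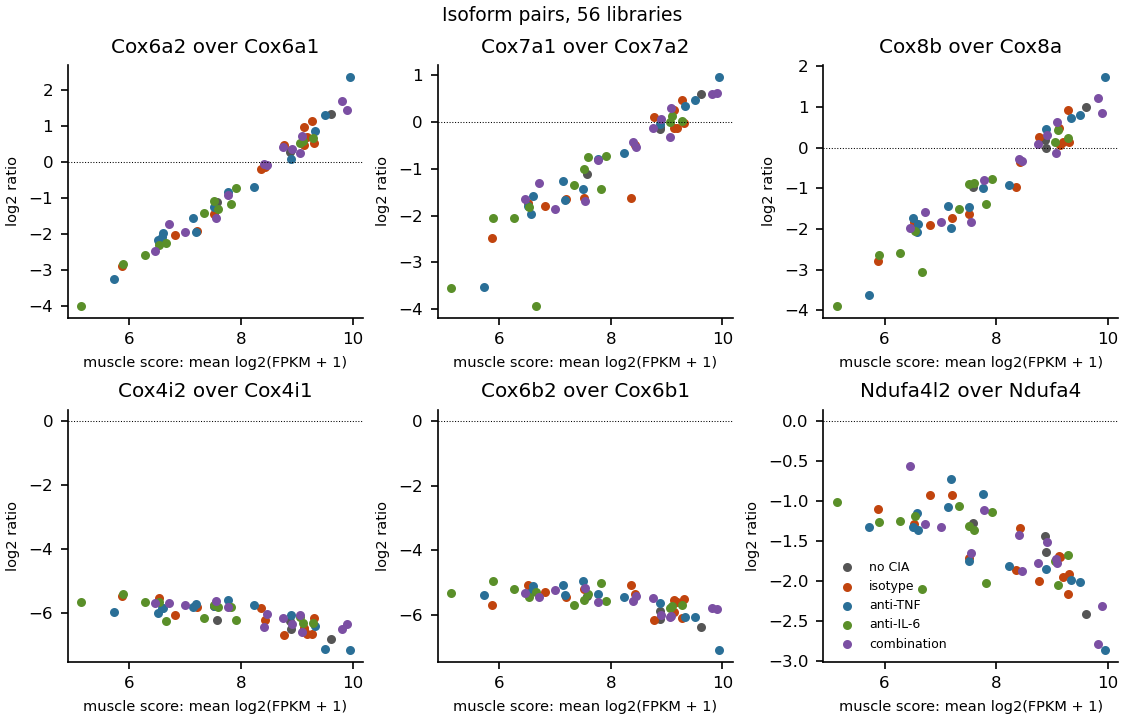
Log2 ratio of 6 isoform pairs (each FPKM + 1) against the muscle score, 1 point per library, coloured by group; the dotted line marks equal values. The Cox6a2, Cox7a1 and Cox8b ratios rise across the range of the score and cross 0, while the Cox4i2, Cox6b2 and Ndufa4l2 ratios stay below 0 and fall.

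The promoters of Cox8b and Cox8a, members of 1 pair with slopes of opposite sign, are shown with that of Atp5k, a subunit of ATP synthase with a match to the NRF1 core. NRF1 is a transcription factor of many nuclear respiratory genes. Each is the 250 bases upstream of the start, from RefSeq on GRCm38.p6, minus strand, with motif matches in capitals.
Cox8b, chr7:140900447-140900696: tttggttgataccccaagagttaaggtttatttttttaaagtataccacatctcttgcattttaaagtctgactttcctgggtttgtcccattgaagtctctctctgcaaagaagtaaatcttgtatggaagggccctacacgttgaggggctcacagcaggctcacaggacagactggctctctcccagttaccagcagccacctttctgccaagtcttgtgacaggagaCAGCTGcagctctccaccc
Cox8a, chr19:7217617-7217866: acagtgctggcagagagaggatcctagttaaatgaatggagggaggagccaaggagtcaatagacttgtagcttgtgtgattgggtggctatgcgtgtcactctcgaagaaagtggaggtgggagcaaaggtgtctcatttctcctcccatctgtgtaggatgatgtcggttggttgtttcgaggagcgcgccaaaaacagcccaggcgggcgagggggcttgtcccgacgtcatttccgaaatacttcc
Atp5k, chr5:108434400-108434649: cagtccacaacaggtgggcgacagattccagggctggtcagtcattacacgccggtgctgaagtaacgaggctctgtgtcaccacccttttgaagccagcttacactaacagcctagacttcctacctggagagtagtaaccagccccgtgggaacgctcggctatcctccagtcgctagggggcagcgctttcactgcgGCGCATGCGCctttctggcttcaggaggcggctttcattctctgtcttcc
The capitals are CAGCTG, an E-box bound by myogenic factors, in Cox8b, and overlapping matches to GCGCATGCG, the NRF1 core, on both strands in Atp5k. Cox8a held none of the motifs searched.

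Promoters were found for 65 of the members (70 promoters). On either strand, GCGCATGCG was in 8.57% of them and in 1.45% of all 32851 promoters of the same length, and CCGGAAG, bound by ETS factors, in 17.1% against 6.91%. The E-box CAGCTG was in 8.57% against 13.0%, TATAAA in 8.57% against 12.4%, TCAAGGTCA, bound by ERR receptors, in 1.43% against 0.387%, and the MEF2 consensus in 0 of 70 against 2.92%. These shares describe letters in the window, not binding.

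Other mitochondrial and metabolic genes were read from lists. All 16 genes of the tricarboxylic acid cycle had a positive called muscle slope (median 0.30), among them Mdh2, mitochondrial malate dehydrogenase (0.34 ± 0.019, SE), and Cs, citrate synthase (0.24 ± 0.019). Of 20 glycolysis genes 13 were positive and 5 negative, with Eno3, the muscle enolase, at 0.99 ± 0.046. Of 43 assembly factors 29 were positive and 1 negative, but their median was 0.05. Of 22 genes of mitochondrial transcription and biogenesis 10 were positive and 7 negative (median 0.01). The adenine nucleotide carriers divided like Cox6a2 and Cox6a1, with Slc25a4, the muscle form, at 0.73 ± 0.021 and Slc25a5 at -0.15 ± 0.022.

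When the muscle score was added to the comparisons of anti-TNF, anti-IL-6 and combination with isotype, limma called 0 members (0%, 0.952% and 0% of all genes). The nuclear medians against isotype became 0.12 for anti-TNF, 0.12 for anti-IL-6 and 0.08 for combination, and 41, 44 and 19 of 83 nuclear members had an unadjusted p under 0.05, against 9.08%, 12.1% and 8.69% of all genes. With the muscle score alone, the mitochondrial medians were -0.01, 0.03 and -0.10. In that fit the smallest adjusted p of a member by limma was 0.324 (Uqcr11), 0.143 (Cox6b1) and 0.396 (mt-Co2). Adding the index run gave unadjusted counts of 22, 9 and 1 of 83, against 9.77%, 9.42% and 4.14% of all genes. The mitochondrial medians with muscle score and run were -0.060, 0.21 and 0.013. With the muscle, neutrophil and an epidermis score, and no run term, limma called 3 of 95 members in anti-IL-6 against isotype. They were Ndufs6, Ndufa11 and Ndufa12, a share near the 3.07% of all genes. The settings beyond the muscle score alone were chosen after the data were seen.

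**Figure D5:**
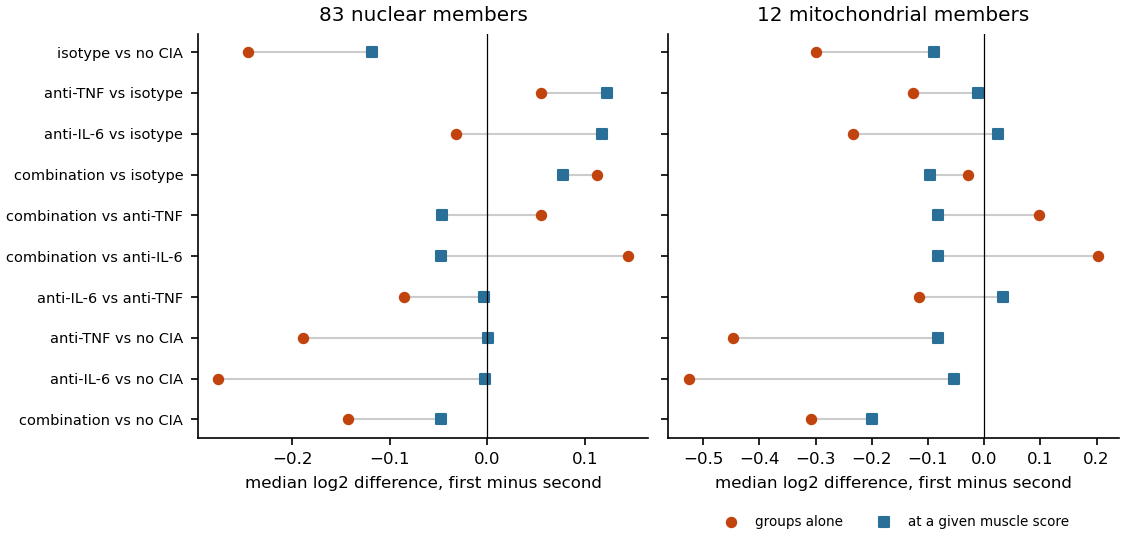
Median log2 difference of the nuclear and mitochondrial members for the 10 group comparisons (first group minus second), from groups alone (circles) and at a given muscle score (squares). Mitochondrial medians against no CIA move toward 0 with the muscle score, for example from -0.53 to -0.05 for anti-IL-6, while nuclear medians of the single antibodies against isotype rise to 0.12.

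The neutrophil score was 2.15 ± 0.28 (SD, n = 4) without CIA and 3.57 to 3.86 on average in the 4 immunised groups. Its genes include the granule genes Ngp, Ltf, Camp and Lcn2, so it cannot tell invading neutrophils from granulocytes of paw marrow. At a given muscle score, limma called a negative slope on the neutrophil score for 40 of 95 members and a positive slope for 1. Of all genes 47% were called, 28.5% positive and 18.5% negative. The slopes were small, with medians of -0.05 for nuclear and -0.08 for mitochondrial members. The lowest belonged to Cox7a1 (-0.30 ± 0.066), Cox8b (-0.20 ± 0.047) and Ndufa4l2 (-0.20 ± 0.056), and the 1 positive call was Cox6b2 (0.10 ± 0.039). Without anti-TNF replicate 7, or without isotype replicate 5, the count of positive calls was 0, and without anti-IL-6 replicate 13 it was 2. The slow and oxidative fibre list fell in the same fit, with 9 of 9 genes negative and a median of -0.52, including Mb, myoglobin (-0.41 ± 0.051). The epidermis list was negative for 12 of 12 genes. These counts depended on the fit, and so did those of all genes. With the epidermis score added, 4 members had a called negative slope and 0 a positive one (1.61% and 9.47% of all genes). With the index run as a term they were 24 and 0 (15.1% and 25.7%), without the filter on low values 4 and 0 (1.85% and 4.93% of all features), and with the neutrophil score alone 82 and 2 (18.7% and 37.5%). Positive calls were 0 with median-of-ratios scaling (24% of all genes) and 2 with scaling without the mitochondrial genes (38.3%).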

How the data were processed

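RNA of 56 front paws was sequenced as paired-end TruSeq Stranded mRNA libraries, per the labels' protocols. The authors deposited 1 table of FPKM values; the unit is inferred from the values because the header names none, and DESeq2 is named without a version per the submitters' processing notes. For aligner, annotation, build and strand the entry is: not given in the sources used here. Depth (46.8 ± 3.63 M fragments, SD, n = 56) was estimated from steps between low values. It limits rows near 1 FPKM most.

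The 14700 genes that reached 1 FPKM on average in 1 or more groups were fitted together in limma 3.58.1 (R 4.3.3; trended, robust prior; 51 residual degrees of freedom) on log2(FPKM + 1), two-sided, with Benjamini-Hochberg adjustment over all of them and a threshold of 0.05. Fold changes on this scale are understated for low genes. The slope fits add the muscle score, or the muscle and neutrophil scores. All 95 members passed the filter, and 89 matched GENCODE M21 with their version. Copies were found among annotated transcripts with BLAST 2.17.0 (at least 98% identity over at least 30% of the transcript). The fits and permutations were tested on simulated data. Python 3.11.15, pandas 2.3.3, numpy 2.4.6 and scipy 1.17.1 did the rest.

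Named members were the mitochondrial genes, the isoform pairs, the 3 highest nuclear members per complex, the best member of each comparison, the 5 highest and lowest slopes, and members that are not subunits; Gm genes are the copies, and Ndufb4, Ndufb4c and Atp5k (for its promoter) were named after their values were seen. Up to 3 genes per list were named, by mean FPKM. Some items that this rule names are not reported here. Members and lists were chosen with earlier results of these data known. Each library is a separate mouse by its label. Alternatives were other pseudocounts, no filter, other scalings, fewer groups, added covariates and leaving out each library.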

Additional observations from a re-analysis of the deposited data

Results flagged for a closer look

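In the no CIA group, the only group tested, 2 of 52 values had 1 library far from the other 3, by Dixon's test. For mt-Co2 it was no CIA replicate 4, the lowest at 1.96 FPKM, whose gap to the next library was 0.911 of the group's range. For mt-Atp6 it was no CIA replicate 1, the lowest at 2.50 FPKM, with a gap of 0.861 of the range. Chance alone marks about 1 in 20 such groups. Both genes are among those with an identical chromosome 1 copy, so both values are uncertain.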

How the results depend on the processing

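Leaving out each library in turn gave 0 to 0 called members in all 10 comparisons, while medians against no CIA moved with no CIA replicates 1 and 3. For the neutrophil slope it gave 0 to 2 positive calls, with 2 without anti-IL-6 replicate 13, 0 without anti-TNF replicate 7 and 0 without isotype replicate 5. For the muscle slope, negative calls fell from 4 to 2 with median-of-ratios scaling, as those of all genes fell from 55.3% to 30%. For the neutrophil slope, positive and negative calls were 0 and 4 without the filter on low values, 0 and 24 with the index run, 0 and 4 with the muscle, neutrophil and epidermis scores together, and 2 and 82 with the neutrophil score alone. The shares of all genes called positive and negative in these fits were 4.93% and 1.85%, 25.7% and 15.1%, 9.47% and 1.61%, and 37.5% and 18.7%. Positive calls were 0 with median-of-ratios scaling and 2 with scaling without the mitochondrial genes. The mitochondrial median was -0.11 with a pseudocount of 10, -0.054 with the 3 scores and -0.24 with the neutrophil score alone (nuclear -0.15). The slope of Ndufa4l2 became 0.018 with the 3 scores (limma adjusted p = 0.822).

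With the index run as a covariate, 11, 3 and 2 members were called in isotype, anti-TNF and anti-IL-6 against no CIA, and nuclear medians were -0.50 for anti-TNF and -0.46 for combination against no CIA. The next settings were chosen after seeing the data. With the muscle score and index run, 45, 21, 1 and 28 members were called in isotype, anti-TNF, anti-IL-6 and combination against no CIA. With the 3 scores, 3 were called in anti-IL-6 against isotype, the mitochondrial median was 0.032 for anti-TNF and 0.036 for anti-IL-6 against no CIA, and the nuclear median for the latter was 0.060. The mitochondrial median of anti-IL-6 against no CIA was -0.053 with the muscle score, a planned setting, -0.064 with the index run added and -0.052 with median-of-ratios scaling added. The cause of these changes was not tested. No paired analysis was possible because each library is a separate mouse of 1 group, and the labels give no replicate numbers. The replicate numbers used here count libraries within a group. Values near 1 FPKM rest on few fragments.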
